A study of Drosophila melanogaster with 6 samples.

Results

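In folate and glycine one-carbon metabolism 8 genes were measured in heads of adult male Drosophila melanogaster, out of 11982 genes that the array names singly. They are Nmdmc, pug, Shmt, CG3999, CG6415, ppl, Gnmt and Sardh, and each was read by 1 probe set, a set of short array probes to a transcript. The group was chosen by measured values of Nmdmc and CG3999, which were low in mutant heads and higher again in rescue heads. The other 6 genes joined them for their place in the same metabolism. The values of Nmdmc and CG3999 between mutant and control, and between rescue and mutant, are therefore given as a description. In these same contrasts the other 6 genes are described likewise. Calls of these genes by limma, a fit across all probe sets, are counted further below, and nothing is read from them.

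The 6 arrays held 2 biological replicates of each of 3 groups, from flies 5 days old that had been reared alike from early larval life. Control flies were labelled wild-type. Mutant flies were homozygous mir-14 mutants; mir-14 is a microRNA gene. Rescue flies were the same homozygous mutants, but their IPCs, the insulin-producing cells, expressed miR-14. These cells are a small cluster of brain neurons that release insulin-like peptides. The sources used here do not give the driver of that expression or the number of flies per sample. The study sought transcripts raised in the mutant and brought back in the rescue, and Nmdmc and CG3999 run the other way.

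One-carbon metabolism moves single carbon units on tetrahydrofolate, a folate cofactor. Serine and glycine are the main donors. In mitochondria the glycine cleavage system, a complex of P, T, H and L proteins, breaks glycine down and loads its carbon onto the cofactor. The units are spent on purines, thymidylate and the methyl group of methionine. In the methionine cycle that methyl group becomes part of S-adenosylmethionine, the methyl donor of most cellular methylation. In flies the fat body, which in the head lies around the brain, is a main site of amino acid breakdown. Heads are a mixture of cell types, so fewer cells of a type and less RNA per cell cannot be told apart here.

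Arrays had a median intensity between 59.25 and 60.2 over all probe sets after RMA, the authors' normalization, which yields an intensity on a linear scale. The lowest value of any of the 8 genes was 149.9, against at most 9.6 for a dim control probe set. RNA quality was followed by the actin control probes, whose 5' signal divided by the 3' signal was 0.104 and 0.0581 in control heads, 0.0941 and 0.137 in mutant heads and 0.153 and 0.144 in rescue heads. It was lowest on control replicate 2 and highest on the rescue arrays. The head label was borne out by photoreceptor genes, with Arr1 and trp at no less than 11813.5 and 5291.3. Genes of the male reproductive tract were at no more than 24.1 on any array.

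The folate enzymes come first. Nmdmc encodes a mitochondrial methylenetetrahydrofolate dehydrogenase and cyclohydrolase, the fly relative of mammalian MTHFD2. Its level was 1939.1 and 1607.0 in control heads, 194.2 and 236.6 in mutant heads and 851.4 and 721.2 in rescue heads. The 3 groups did not overlap, with rescue between mutant and control. Over the 4 pairs of arrays the mutant level was at most 14.7% of control, and the rescue level was 37.2% to 53.0% of it. On the log2 scale the difference was -3.04 ± 0.14 (SE of the fit) between mutant and control, 1.87 ± 0.14 between rescue and mutant and -1.17 ± 0.14 between rescue and control. The rescue thus covered 61.5% of the distance from mutant to control on that scale, a share in which the mutant arrays enter both differences.

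pug encodes the cytosolic trifunctional enzyme that interconverts the one-carbon forms of tetrahydrofolate. Its level was 2826.5 and 2692.1 in control heads, 2454.9 and 2141.8 in mutant heads and 3429.1 and 3175.1 in rescue heads. The mutant arrays were the lowest and the rescue arrays the highest, with no overlap between any of the groups. The log2 difference was -0.27 ± 0.096 between mutant and control and 0.53 ± 0.096 between rescue and mutant. The pug probe set carries the suffix that the array maker uses for probes shared by several transcripts. Of the related genes described below, Pfas, Cbs, Sam-S and ras have probe sets with the same suffix.

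Shmt encodes serine hydroxymethyltransferase, which takes a carbon from serine and leaves glycine. It read 3144.1 and 2915.9 in control heads, 2491.3 and 2141.5 in mutant heads and 3349.8 and 3235.0 in rescue heads. As for pug, the mutant arrays lay below the control arrays and the rescue arrays above both. The log2 difference was -0.39 ± 0.098 between mutant and control and 0.51 ± 0.098 between rescue and mutant. All 3 folate enzymes were therefore lowest in mutant heads, but the size differed. Nmdmc, which was chosen for its fall, was 8.24-fold lower in the mutant than in control, Shmt 1.31-fold and pug 1.20-fold. pug and Shmt followed each other closely across the arrays. After each profile was centred on its own mean, the log2 levels of pug and Shmt differed by a root mean square of 0.066 over the 6 arrays, against 1.14 for pug and Nmdmc.

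**Figure D1:**
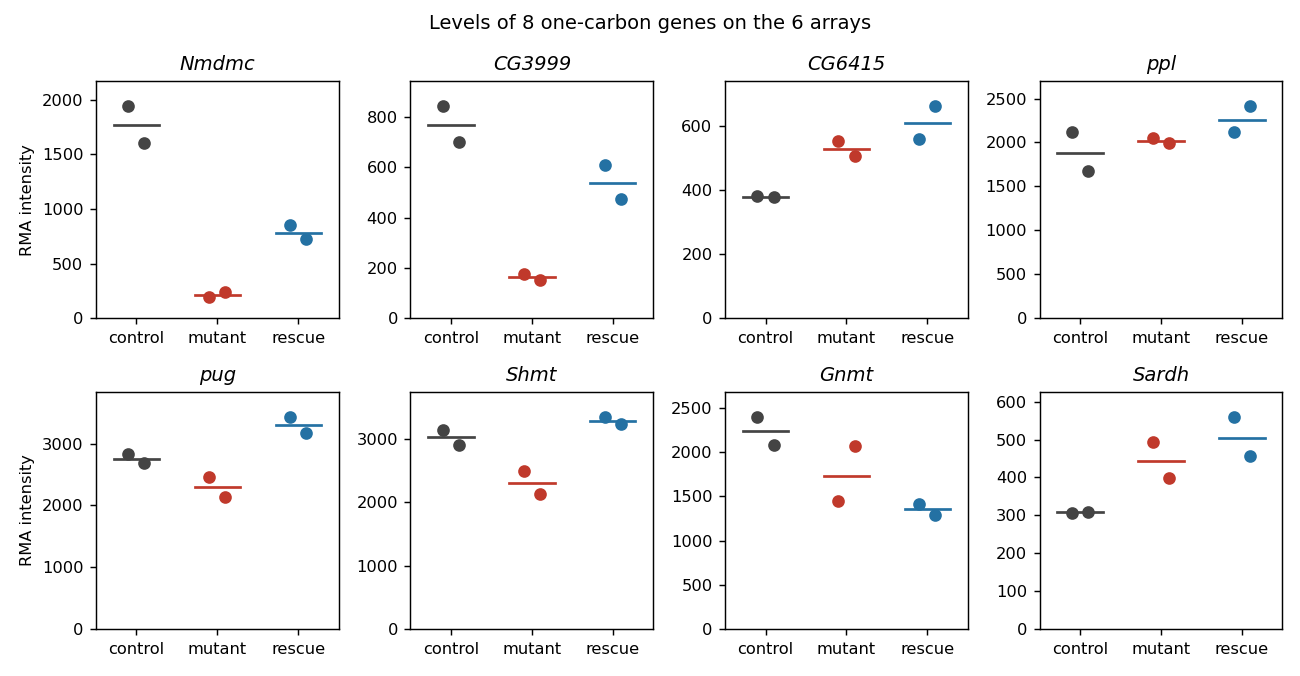
RMA intensity (linear axis from 0) of the 8 genes, 1 panel per gene; points are the 2 arrays of each group and the line is their geometric mean. Nmdmc and CG3999 were low on both mutant arrays (194.2 and 236.6, and 176.8 and 149.9), while CG6415 and Sardh were lowest in control.

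The genes of the glycine cleavage system come next. CG3999 was chosen for its fall and return, so its contrast with the others is only described. It is the gene of the P protein of this system, the glycine decarboxylase that starts the reaction. CG3999 read 841.5 and 700.1 in control heads, 176.8 and 149.9 in mutant heads and 607.0 and 472.5 in rescue heads. The mutant arrays stood far below the others, at 17.8% to 25.3% of control, and the rescue arrays were again between mutant and control without overlap. The log2 difference was -2.24 ± 0.15 between mutant and control, 1.72 ± 0.15 between rescue and mutant and -0.52 ± 0.15 between rescue and control, so that 76.8% of the distance was covered. This share too uses the mutant arrays in both differences.

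CG6415 is the gene of the T protein, the aminomethyltransferase of the same complex. It read 380.7 and 377.1 in control heads, 551.1 and 506.0 in mutant heads and 558.3 and 659.5 in rescue heads. Control was the lowest group here, opposite to CG3999. The log2 difference was 0.48 ± 0.10 between mutant and control and 0.20 ± 0.10 between rescue and mutant. ppl (pumpless) encodes the H protein, which carries the glycine-derived group between the other subunits. Its values were 2119.1 and 1671.0 in control heads, 2047.9 and 1988.3 in mutant heads and 2118.7 and 2410.0 in rescue heads. The mutant values of ppl lay within the control range, and the difference of 0.10 ± 0.13 was smaller than its error. CG7430, the gene of the L protein (dihydrolipoamide dehydrogenase), which other dehydrogenase complexes share, was counted with the related genes below. It read 1718.4 and 1695.8, 1818.1 and 1760.1, and 1949.6 and 1749.9 in control, mutant and rescue, and did not pass in any comparison (limma adjusted p from 0.401 to 0.882).

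The last pair handles methylated glycine. Gnmt encodes glycine N-methyltransferase, which uses S-adenosylmethionine to turn glycine into sarcosine. Its level was 2398.3 and 2086.3 in control heads, 1444.4 and 2066.5 in mutant heads and 1420.3 and 1292.0 in rescue heads. The mutant arrays differed from each other more than those of any other member, and the second mutant array came close to the lower control array. The log2 difference was -0.37 ± 0.17 between mutant and control and -0.35 ± 0.17 between rescue and mutant. Sardh encodes sarcosine dehydrogenase, which returns sarcosine to glycine. It read 306.7 and 309.0 in control heads, 494.4 and 399.2 in mutant heads and 559.2 and 456.5 in rescue heads. Both control arrays lay below the other 4, and mutant and rescue overlapped. The log2 difference was 0.53 ± 0.13 between mutant and control and 0.19 ± 0.13 between rescue and mutant.

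Counted by the fit across all probe sets (limma, adjusted p under 0.05), 3 of the 8 genes were lower in mutant than in control (Nmdmc, CG3999 and Shmt) and 1 was higher (CG6415). Of all 18769 probe sets, 3.88% were lower and 6.88% higher. With arrays centred on their median the members' split was 2 lower and 2 higher. Shmt did not pass when any 1 of the 6 arrays was left out (log2 differences from -0.50 to -0.28), and CG6415 did not without control replicate 2 or either mutant array. The groups did not overlap for 7 of the 8 genes, the exception being ppl, against 54.7% of all probe sets. Between rescue and mutant 2 genes were higher, Nmdmc and CG3999, and 0 were lower (limma, and 0 at an unadjusted p under 0.05), where 0.693% of all probe sets were higher and 0.709% lower. Without mutant replicate 2, Nmdmc alone was called, and without either control array pug and Shmt were called as well. The groups did not overlap for 7 of 8 genes, the exception being Sardh, against 49.1% of all. As the group was chosen on these contrasts, nothing is read from these counts.

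The comparison of rescue with control asks which levels differed from control in mutants whose insulin-producing cells expressed miR-14. It was not used to choose the genes, although it shares the control and rescue arrays with the contrasts that were. CG6415 and Sardh were raised in rescue heads and Gnmt was reduced. CG6415 rose by 0.68 ± 0.10 on the log2 scale, or to 1.6 times control (limma adjusted p = 0.00845). Sardh rose by 0.71 ± 0.13, or 1.64-fold (limma adjusted p = 0.0186). Gnmt fell by 0.72 ± 0.17, and was 1.65-fold lower than in control (limma adjusted p = 0.0374). For these 3 genes both rescue arrays lay outside the control range. In sarcosine metabolism the gene of the enzyme that makes sarcosine was thus lower and that of the enzyme that removes it higher in rescue than in control. Their differences between mutant and control had the same signs, at -0.37 ± 0.17 for Gnmt and 0.53 ± 0.13 for Sardh.

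ppl, pug and Shmt did not pass between rescue and control. Their log2 differences were 0.26 ± 0.13, 0.26 ± 0.096 and 0.12 ± 0.098 (limma adjusted p = 0.21, 0.125 and 0.444). CG3999, at -0.52 ± 0.15, was not among the genes called. Counting Nmdmc, 2 genes were lower and 2 higher, against 5.25% and 6.83% of all probe sets, and 7 of 8 had groups that did not overlap, against 59.6%. The calls of the 3 genes tested depended on single arrays. Gnmt did not pass when any control or rescue array was left out (limma adjusted p = 0.0555 to 0.216). Leaving out rescue replicate 1 or 2 ended the call of Sardh (0.57 with limma adjusted p = 0.132, and 0.86 with 0.0517), and leaving out rescue replicate 2 ended that of CG6415 (0.56, adjusted p = 0.0699). ppl passed without control replicate 1 (0.44, adjusted p = 0.0261), when control replicate 2, with its low 5' signal, was the only control. With a covariate built from the 5' and 3' control signals neither CG6415 (0.71, adjusted p = 0.0712) nor Sardh (0.86, adjusted p = 0.08) passed.

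**Figure D2:**
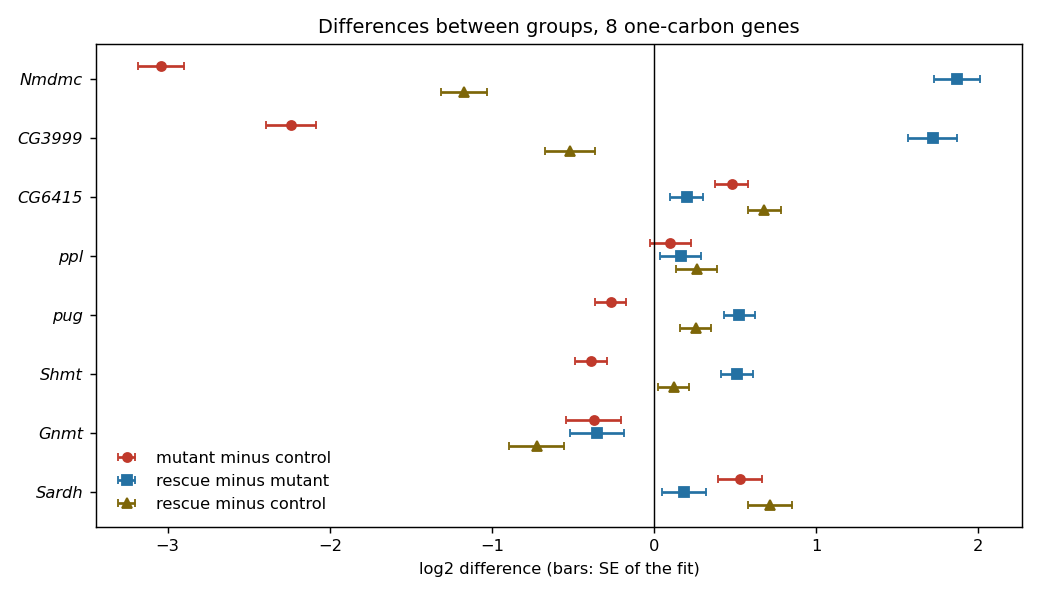
Log2 difference of each of the 8 genes between groups (horizontal axis), with the SE of the limma fit as bars and 1 symbol per comparison. Nmdmc at -3.04 and CG3999 at -2.24, both chosen for their fall in the mutant, stand apart from the other 6 genes. The differences of those 6 between mutant and control lay between -0.39 and 0.53.

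Nmdmc and CG3999 were then set beside the genes around them in metabolism. The related genes were 33 enzymes measured by a probe set with a single gene symbol. For 32 of these genes there was 1 such probe set. Between mutant and control 9 of the 33 rose and 8 fell (limma adjusted p under 0.05). Of all probe sets 6.88% rose and 3.88% fell. The median log2 difference of the 33 was 0.089 against -0.034 over all probe sets. The calls of 7 genes held with each array left out in turn: CG7560, Pfas and Agxt, which rose, and Prat2, Adsl, Tdh and aay, which fell. The number called was 8 without mutant replicate 1 (3 higher, 5 lower) and 7 without mutant replicate 2 (3 higher, 4 lower).

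Purine synthesis takes its formyl groups from the folate pool. Of its 9 measured genes 1 rose and 2 fell between mutant and control. Prat2, for the amidophosphoribosyltransferase that opens the pathway, read 4430.0 and 3850.3 in control heads, 1637.5 and 1362.7 in mutant heads and 2884.6 and 2795.6 in rescue heads. Its groups did not overlap, and rescue lay between the other groups, as for Nmdmc and CG3999. Prat2 fell by 1.47 ± 0.12 between mutant and control (limma adjusted p = 6.35e-04) and rose by 0.93 ± 0.12 between rescue and mutant (limma adjusted p = 0.0151). The second call was lost whenever a mutant or rescue array was left out (adjusted p = 0.0554 to 0.174).

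Adsl, for adenylosuccinate lyase, which acts late in the same pathway, read 857.0 and 940.8 in control heads, 500.9 and 366.4 in mutant heads and 760.5 and 630.3 in rescue heads. It fell by 1.07 ± 0.16 in the mutant (limma adjusted p = 0.00871), while the later difference of 0.69 ± 0.16 did not pass (adjusted p = 0.112). Pfas, for the FGAM synthetase, went the other way, from 676.7 and 713.1 in control to 1385.7 and 1353.8 in mutant and 1574.5 and 1495.2 in rescue. The rise was 0.98 ± 0.078 in the mutant (limma adjusted p = 6.46e-04), and Pfas stayed above control in the rescue by 1.14 ± 0.078 (adjusted p = 4.01e-04). Gart, whose product includes the GAR transformylase that uses formyl-tetrahydrofolate, had differences of -0.27 ± 0.11 and 0.61 ± 0.11 (adjusted p = 0.177 and 0.0569). Prat, the other amidophosphoribosyltransferase gene, had a difference of 0.15 ± 0.094 in the mutant (adjusted p = 0.363).

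Among genes of serine and glycine metabolism 3 of 9 rose in the mutant and 3 fell. CG10184, listed as a threonine aldolase, which splits threonine into glycine and acetaldehyde, was at 822.7 and 752.8 in control heads, 557.5 and 561.7 in mutant heads and 828.4 and 865.8 in rescue heads. It fell by 0.49 ± 0.081 in the mutant (limma adjusted p = 0.0121) and rose by 0.60 ± 0.081 in the rescue (adjusted p = 0.022). Its fall did not pass without either mutant array (adjusted p = 0.0847 and 0.0898), and its rise was lost whenever a mutant or rescue array was left out (adjusted p = 0.158 to 0.212). Tdh, for threonine dehydrogenase, which also leads from threonine to glycine, read 626.8 and 656.2 in control heads, 295.8 and 337.7 in mutant heads and 339.9 and 301.9 in rescue heads. It fell by 1.02 ± 0.10 (limma adjusted p = 0.00158) and was at 0.499 times control in the rescue (adjusted p = 0.00186).

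aay, for the phosphatase that completes serine synthesis, fell by 0.77 ± 0.083 in the mutant (limma adjusted p = 0.00218) and was likewise lower in the rescue, by -0.78 ± 0.083 (adjusted p = 0.00236). CG6287, listed as the phosphoglycerate dehydrogenase at the start of serine synthesis, had a difference of -0.25 ± 0.088 (adjusted p = 0.122). Agxt, for an aminotransferase that turns glyoxylate into glycine, rose from 839.8 and 796.4 in control to 1658.1 and 1309.9 in mutant, by 0.85 ± 0.12 (limma adjusted p = 0.00626). Agxt was 1.08 ± 0.12 above control in the rescue (adjusted p = 0.00265). Srr, for serine racemase, rose by 0.55 ± 0.098 (adjusted p = 0.0158), a call that did not hold without either mutant array (adjusted p = 0.0924 and 0.113), and stood 0.94 ± 0.098 above control in the rescue (adjusted p = 0.00221). CG8745 rose by 0.32 ± 0.081 (adjusted p = 0.0485) and did not pass without any 1 array (adjusted p from 0.0536 to 0.252).

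In the folate cycle itself 2 of 5 measured genes rose in the mutant and 0 fell (limma), with 1 lower at an unadjusted p under 0.05. CG7560, listed as the methylenetetrahydrofolate reductase that commits carbon to methionine synthesis, read 174.2 and 166.9 in control heads, 336.8 and 364.3 in mutant heads and 290.4 and 331.0 in rescue heads. It rose by 1.04 ± 0.094 (limma adjusted p = 0.00113) and remained 0.86 ± 0.094 above control in the rescue (adjusted p = 0.00263). Fpgs1, for a folylpolyglutamate synthase, which retains folates in cells, rose by 0.46 ± 0.077 (adjusted p = 0.013) and was 0.64 ± 0.077 above control in the rescue (adjusted p = 0.00387). The first call of Fpgs1 did not hold without either mutant array (adjusted p = 0.0818 and 0.0976) and the second not without rescue replicate 1 (adjusted p = 0.0511). Ts, for thymidylate synthase, was dim at 16.8 to 18.8 and passed in none of the comparisons.

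Of the 10 measured genes of the methionine cycle and transsulfuration, 3 rose and 3 fell in the mutant. CG10621, of the homocysteine methyltransferase family, read 1048.9 and 944.7 in control heads, 559.5 and 577.8 in mutant heads and 367.5 and 467.3 in rescue heads. It fell by 0.81 ± 0.12 in the mutant (limma adjusted p = 0.0092) and was 2.40-fold lower than control in the rescue (adjusted p = 0.00172). Ahcy, for the enzyme that clears S-adenosylhomocysteine after methylation, fell by 0.70 ± 0.10 (adjusted p = 0.00713), and Cth, for cystathionine gamma-lyase, fell by 0.54 ± 0.13 (adjusted p = 0.0473). Cbs, for cystathionine beta-synthase, rose by 0.52 ± 0.10 (adjusted p = 0.021), Mtap by 0.49 ± 0.073 (adjusted p = 0.00832) and SamDC by 0.49 ± 0.11 (adjusted p = 0.0375). Mtap salvages methionine and SamDC commits S-adenosylmethionine to polyamine synthesis. Sam-S, which encodes the synthetase of S-adenosylmethionine, had a difference of 0.12 ± 0.080 (adjusted p = 0.357). With mutant replicate 2 left out none of these 6 genes passed, and with mutant replicate 1 left out only Ahcy did (adjusted p of the lost calls from 0.0655 to 0.212).

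Between rescue and mutant 2 of the 33 related genes rose, Prat2 and CG10184, and 0 fell (limma), where 1 was lower at an unadjusted p under 0.05. Of all probe sets 0.693% were higher and 0.709% lower. The median log2 difference of the related genes was 0.046 against -0.015 over all probe sets. No related gene passed when either mutant or either rescue array was left out, and 4 passed without either control array. Between rescue and control 8 rose and 4 fell, against 6.83% and 5.25% of all probe sets, with a median of 0.15 against -0.049. Of these 12 calls, 7 held with each array left out in turn, those of CG7560, Srr, Agxt and Pfas upward and of CG10621, aay and Tdh downward. Prat2 fell by 0.54 ± 0.12 (limma adjusted p = 0.0277), a call lost with either rescue array left out (0.142 and 0.174). Adss, for adenylosuccinate synthetase, was higher by 0.31 ± 0.079 (adjusted p = 0.0489) and did not pass without 5 of the 6 arrays (adjusted p from 0.0821 to 0.232). Without rescue replicate 1 the counts were 4 higher and 3 lower.

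**Figure D3:**
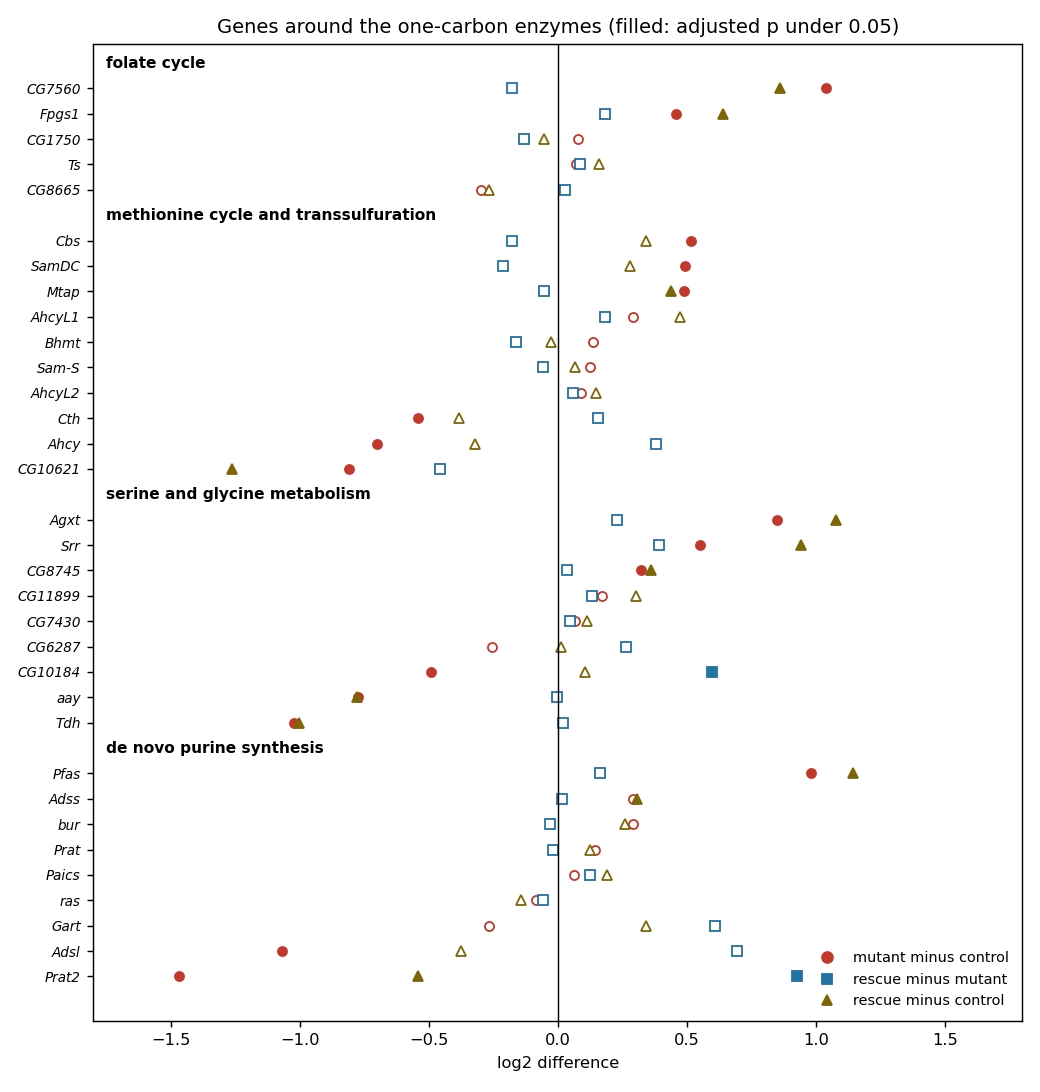
Log2 differences of the 33 related genes (horizontal axis), 1 row per gene in 4 groups by pathway, with 1 symbol per comparison and filled symbols for an adjusted p under 0.05. Prat2, at -1.47 between mutant and control and 0.93 between rescue and mutant, lies lowest, and CG7560, Pfas and Agxt are high in both mutant and rescue against control.

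Markers of head cell types were set beside these values. The summed level of 9 fat body genes was 33341.9 to 35370.3 in control, 29858.2 to 30901.4 in mutant and 35532.6 to 35973.3 in rescue. Of these genes the storage protein gene Lsp2 had the largest fall in the mutant. It was at 12693.3 and 12677.6 in control heads, 7835.2 and 7134.1 in mutant heads and 11784.4 and 12081.5 in rescue heads. Its log2 difference was -0.76 ± 0.081 in the mutant (limma adjusted p = 0.00215). Between rescue and mutant it was 0.67 ± 0.081 (adjusted p = 0.0129). A second sum left out Lsp2, after its values were seen. The other 8 genes summed to 22677.0 and 20664.3 in control heads, 23066.2 and 22724.1 in mutant heads and 23748.2 and 23891.8 in rescue heads. Of the 9 genes Lsp2 fell in the mutant, Mtp and fon rose and 6 did not pass. Among those 6, FASN1 read 8740.0 and 8031.2 in control heads, 7522.2 and 7537.3 in mutant heads and 8921.7 and 8781.1 in rescue heads. The lipid carrier gene apolpp, also of the fat body, had a difference of 0.14 ± 0.083 (adjusted p = 0.31). Of the yolk protein genes, best known from females, Yp1 and Yp2 were at 13.9 to 38.2 and Yp3 at 300.0 to 481.2. Glial genes summed to 7785.2 to 8331.5 in control, 8889.1 to 9142 in mutant and 9159.7 to 9459.5 in rescue, with 2 of 5 higher and 1 lower in the mutant. Hemocyte genes summed to 977.5 to 1672 in control, 976.8 to 1417.1 in mutant and 1981.4 to 1991.2 in rescue, and 0 of 6 passed between mutant and control (limma), where 2 had an unadjusted p under 0.05. Muscle genes summed to 1307.5 to 1749.5 in control, 1150.5 to 1195.3 in mutant and 1443.1 to 1613.9 in rescue. Of these 4 genes 0 passed between mutant and control (limma), where 2 were lower at an unadjusted p under 0.05. Neuronal genes summed to 4228.9 to 4675.9 in control, 4250.5 to 4288.2 in mutant and 3737.5 to 4111.7 in rescue. Between rescue and control, the comparison in which CG6415, Sardh and Gnmt passed, 7 marker genes passed as well. The photoreceptor genes trp and inaD fell by 0.52 ± 0.080 and 0.47 ± 0.081 (limma adjusted p = 0.00905 and 0.014), and the 4 photoreceptor genes summed to 41731.8 to 42235.7 in control and 36167.6 to 37022.2 in rescue. The neuronal gene Rdl fell by 0.76 ± 0.12 (adjusted p = 0.00911). The hemocyte gene NimC1 was 5.89-fold higher (adjusted p = 0.00848), and the glial genes nrv2 and moody and the fat body gene Mtp rose by 0.68 ± 0.12, 0.56 ± 0.073 and 0.89 ± 0.073 (adjusted p = 0.0138, 0.00492 and 8.56e-04). The part of these cell types in the values of the 8 genes was not tested.

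The genes whose levels ran most like Nmdmc and CG3999 were found by the root mean square difference of centred log2 profiles over the 6 arrays, among 11975 genes that were not members, with 1 probe set per gene. For Nmdmc they were hll (0.346), CG32523 (0.438), Jhedup (0.452), Obp19a (0.5) and lncRNA:CR32553 (0.517). hll read 249.3 and 297.5 in control heads, 46.7 and 40.4 in mutant heads and 107.6 and 92.1 in rescue heads. For CG3999 they were the odorant binding protein genes Obp19a (0.151) and Obp99b (0.267), then CG15282 (0.285), CG1544 (0.288) and Scp2 (0.312). Obp19a read 74.4 and 75.2 in control heads, 20.2 and 17.8 in mutant heads and 71.8 and 55.7 in rescue heads. When members were included, CG3999 stood in place 2 by likeness to Nmdmc and Nmdmc in place 11 by likeness to CG3999, with a difference of 0.382. Nmdmc and CG3999 were chosen for the same fall and return on these arrays, so nothing is read from their places. The 6 arrays are shared by all these profiles, so likeness is a description of these samples.

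**Figure D4:**
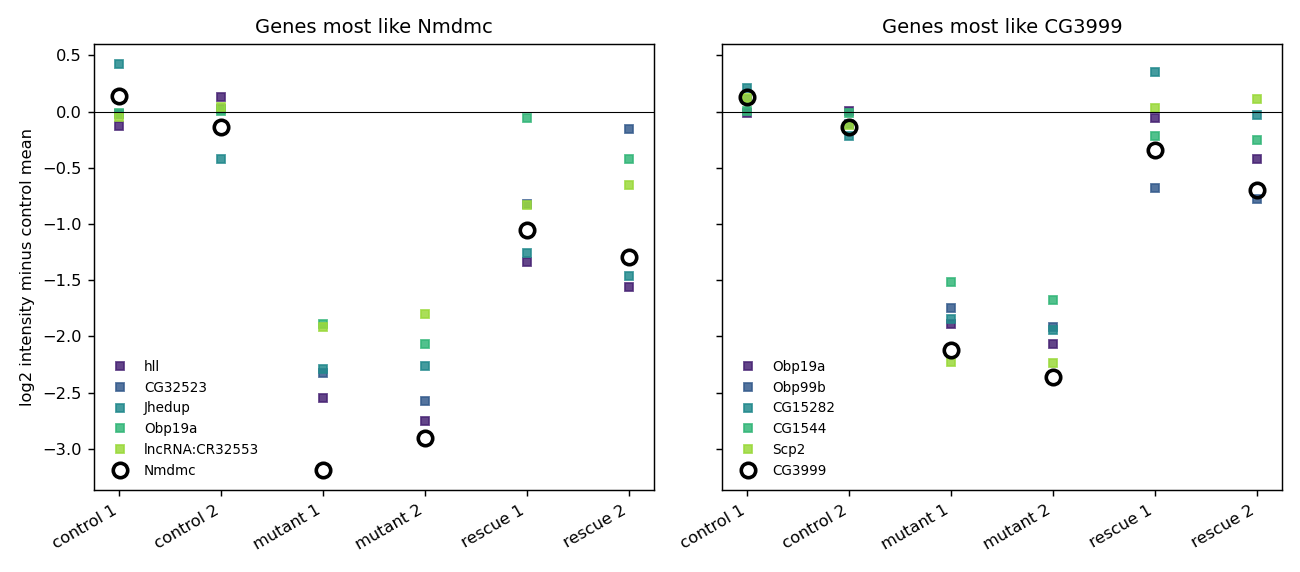
Log2 intensity minus the control mean (vertical axis) on each of the 6 arrays for Nmdmc (left, open circles) and CG3999 (right, open circles) with the 5 genes most like each (squares). The genes were picked for likeness on these same arrays, and all shown are lowest on the 2 mutant arrays. Obp19a follows CG3999 most closely, at a root mean square difference of 0.151.

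The neighbours of Nmdmc and CG3999 in gene order were examined next. Of the 3 measured genes on each side of Nmdmc, 0 of 6 fell (limma, and 0 at an unadjusted p under 0.05) and 1 rose in the mutant (Mst85C, 0.80 ± 0.081, limma adjusted p = 0.00171), with log2 differences from -0.032 to 0.80. Of the 6 around CG3999, 0 fell by the same 2 measures and 1 rose (CG12817, 0.54 ± 0.095, adjusted p = 0.0153), with differences from -0.28 to 0.54. Between rescue and mutant 0 of these 12 genes passed, with 1 in each neighbourhood lower at an unadjusted p under 0.05. The gene order is that of the assembly Release 6 plus ISO1 MT.

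**Figure D5:**
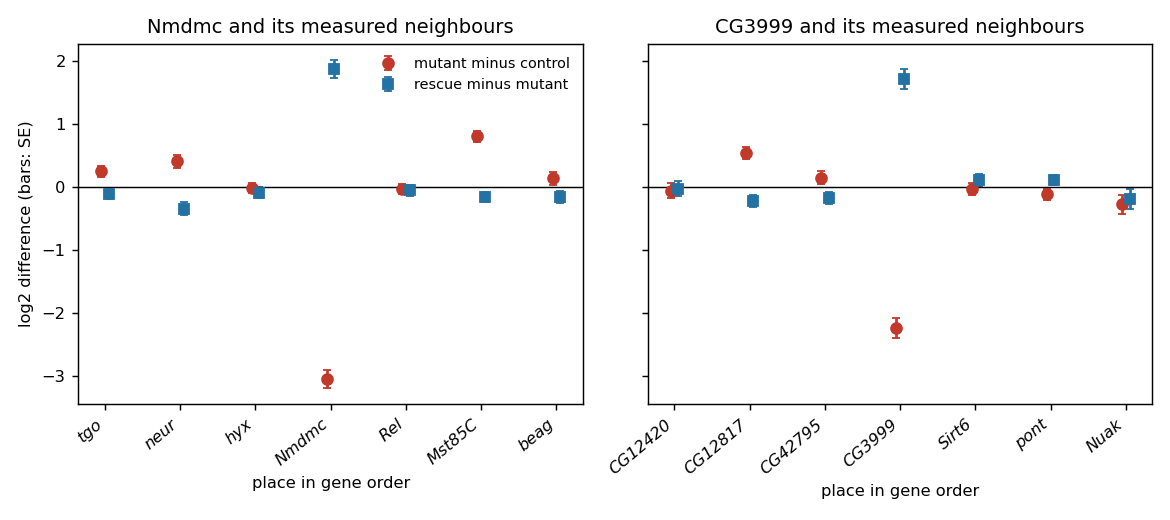
Log2 differences (vertical axis, bars are the SE of the limma fit) of Nmdmc (left), CG3999 (right) and the 3 measured genes on each side, in gene order and not to distance. The 12 neighbours lie between -0.28 and 0.80 between mutant and control, against -3.04 for Nmdmc and -2.24 for CG3999, both chosen for their fall.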

How the data were processed

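Total RNA of fly heads was extracted with Trizol, labelled with biotin and hybridised to Affymetrix arrays, per the labels' protocols. In the deposited table each cell is an intensity, which the authors computed with RMA, per the submitters' processing notes (no version given there). Values were on a linear scale and log2 was taken here. Of 18952 probe sets, 183 controls were left out and 18769 tested. Among these, 13647 had 1 gene symbol and 402 several, and only the former were named. No sequence tables were used here, so no sequences are shown.

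Groups were compared genome-wide with limma 3.58.1 in R 4.3.3 (all 6 arrays and 3 groups, two-sided), with Benjamini-Hochberg adjustment over all tested probe sets within each comparison and a threshold of 0.05. Residual degrees of freedom were 3 and the prior added 4. The number of arrays limits the precision, and p-values measure the spread between samples that the titles call biological replicates. RMA removes a change common to all transcripts.

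Members and gene lists were chosen with earlier results of these data known. Named were all members, related genes past the threshold in any comparison or with the largest mutant difference of their list, a few related genes next to a member's reaction, chosen after their values were seen, and the 5 genes most like Nmdmc and CG3999. A gene with several probe sets was represented by the brightest. Alternatives left out each array, added a replicate block or 5' to 3' covariate, fitted only the groups compared, changed the offset, filter, scaling or variance model, or averaged probe sets.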

Additional observations from a re-analysis of the deposited data

How the results depend on the processing

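The number of the 8 members called between mutant and control ranged from 2 to 3 with 1 array left out, against 4, and was 2 with array weights or with a covariate from the 5' and 3' control signals. Between rescue and mutant it ranged from 1 to 4, against 2, and was 4 with only the groups compared, with array weights or with a trended and robust prior. Between rescue and control it ranged from 1 to 4, against 4, and was 2 with the covariate. For the related genes the counts with 1 array left out ranged from 7 to 18 (mutant and control, against 17), from 0 to 4 (rescue and mutant, against 2) and from 7 to 17 (rescue and control, against 12). Between rescue and mutant they were 4 with only the groups compared and 5 with array weights. Of the 8 members, 5 were called between mutant and control with a mean intensity of at least 32 or with a trended and robust prior (2 higher and 3 lower in each). The cause of these changes in the counts was not tested.

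The titles give the groups the same replicate numbers but state no shared batch or day, so the numbers do not pair the arrays. Deviations of arrays with the same number correlated at -0.26 (control and mutant), -0.19 (control and rescue) and 0.0036 (mutant and rescue), across probe sets. With the replicate block 1 related gene was called between rescue and mutant. Over 78 tests of named genes, whether called or not in the main fit, 9 calls were lost and 2 gained. Between mutant and control CG6415, Shmt, Cth, SamDC and CG8745 lost the call (adjusted p = 0.0672, 0.0611, 0.0907, 0.0838 and 0.0968) and Sardh gained it (0.0494). Between rescue and control Gnmt, CG8745 and Adss lost it (0.0786, 0.0718 and 0.0914) and CG3999 gained it (-0.52, 0.0259), and between rescue and mutant CG10184 lost it (0.0729).

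Some differences near 0 changed sign, none of them called. ppl between mutant and control was -0.050 with the covariate and ranged from -0.071 to 0.27 with 1 array left out. Between rescue and mutant the ranges were -0.061 to 0.056 for aay, -0.076 to 0.11 for Tdh, -0.033 to 0.11 for CG8745 and -0.040 to 0.074 for Adss, and aay was 0.00026 with arrays centred on the median. CG10184 between rescue and control was -0.0021 with the covariate. Over all single genes and alternatives, 1023 values kept direction and call, 107 lost the call and 30 gained one. With 2 arrays per group, and no background level in the table, small differences and dim probe sets are the least certain.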

Other observations

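The neighbours of the other 6 members in gene order included a larger difference than any beside Nmdmc and CG3999. Beside pug, Phyhd1 was at 341.4 and 290.7 in control heads, 903.0 and 1059.7 in mutant heads and 738.8 and 872.1 in rescue heads (1.63 ± 0.13 between mutant and control, limma adjusted p = 6.47e-04). CG6465, also near pug, rose by 0.75 ± 0.17 (adjusted p = 0.0335), opposite to the lower level of pug itself. Beside CG6415 the lipase gene Lip2 fell by 0.81 ± 0.099 (adjusted p = 0.00365), where CG6415 was higher. Over the 48 neighbours of the 8 genes 7 rose and 3 fell between mutant and control (limma). Of all probe sets 6.88% rose and 3.88% fell. Between rescue and mutant 0 of the neighbours passed (limma), where an unadjusted p under 0.05 was found for 3 higher and 6 lower genes. These genes were singled out after their values were seen.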
